A study of Mus musculus with 2 samples.

Results

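The genes described are 10 members of the VEGF and angiopoietin system in mouse intestine at embryonic day 15.5: the ligand genes Vegfa, Vegfb, Vegfc, Angpt1 and Angpt2, and the receptor genes Flt1, Kdr, Flt4, Tek and Tie1. They were chosen by name, and a member had to be listed in both the gene and the transcript tables. All 10 were found, among 43346 Ensembl genes in a gene table, and they have 34 transcripts there. The tissue came from strain B6NCrl, with no treatment or mutation named in the labels. Replicate 1 is a pool of intestines from 78 embryos and replicate 2 a pool from 62 embryos, each of both sexes, and each pool gave 1 total RNA library. The 2 libraries form 1 group, so differences between conditions could not be tested, and the spread between libraries covers embryos, dissection and library preparation together. The replicate numbers are those of the labels, and levels are TPM, the usual unit of transcript abundance scaled for length and depth, given for replicate 1 and replicate 2 in that order or as mean ± SD (n = 2 throughout). Gene and exon positions are on assembly GRCm38 (mm10).

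Vascular endothelial growth factors are secreted ligands that act through receptor tyrosine kinases on endothelial cells, the cells that line blood and lymph vessels. VEGF-A drives the growth of blood vessels mainly through VEGFR2, the product of Kdr, while VEGFR1, the product of Flt1, binds VEGF-A tightly and is known as a trap for it, above all in its soluble form. VEGF-B binds VEGFR1, and VEGF-C acts mainly through VEGFR3, the product of Flt4, in the growth of lymphatic vessels. Angiopoietin-1 activates the receptor Tie2, the product of Tek, and steadies vessels, whereas angiopoietin-2 is a context-dependent ligand that can oppose it. Tie1 is a related receptor with no strong ligand of its own. In the growing gut these genes accompany the spread of the vessel network through the mesenchyme.

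Vegfa makes several proteins by joining its exons differently, and these joins are shown first because the isoform shares below turn on them. The exon of 132 bases at chr17:46020991-46021122 codes for a stretch that lets the protein bind heparin and neuropilins, and the exon of 72 bases at chr17:46022277-46022348 adds a second, strongly basic stretch. Vegfa-201 has neither and codes for VEGF120, Vegfa-202 has the longer one and codes for VEGF164, and Vegfa-207 has both and codes for VEGF188. The counts in these names are the 120, 164 and 188 residues left after removal of the signal peptide, read from the start codon of Vegfa-201. The annotated coding sequences of Vegfa-202 and Vegfa-207 begin further upstream and give 368 and 392 residues. The lines give the coding strand, which is the minus strand, from the last 30 bases of the shared exon to the stop codon, spliced from chr17:46018858-46024094, with the alternative exons in capitals.
Vegfa-201: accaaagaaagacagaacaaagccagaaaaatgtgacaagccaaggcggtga
Vegfa-202: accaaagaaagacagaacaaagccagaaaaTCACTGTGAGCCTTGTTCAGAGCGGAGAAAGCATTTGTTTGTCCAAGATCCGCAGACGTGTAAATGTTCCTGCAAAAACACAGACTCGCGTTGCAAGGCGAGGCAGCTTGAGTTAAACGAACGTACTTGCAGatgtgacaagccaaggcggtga
Vegfa-207: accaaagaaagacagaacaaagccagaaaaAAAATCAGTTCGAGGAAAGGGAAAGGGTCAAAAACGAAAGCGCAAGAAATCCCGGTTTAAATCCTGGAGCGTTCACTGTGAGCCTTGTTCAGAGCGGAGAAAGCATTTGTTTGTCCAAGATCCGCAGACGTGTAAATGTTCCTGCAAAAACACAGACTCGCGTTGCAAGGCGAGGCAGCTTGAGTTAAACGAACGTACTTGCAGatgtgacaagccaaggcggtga
These sequences, and those of the other transcripts printed here, are from the transcripts of GENCODE M21 on GRCm38.

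Flt1 makes a full-length receptor and a soluble one, and the point where they part decides whether the protein keeps its membrane anchor and kinase. In the full-length form (ENSMUST00000031653.7), with 30 exons and 1333 residues, exon 13 is spliced to exon 14. In the soluble form (ENSMUST00000110529.3), with 13 exons and 688 residues, transcription reads on from exon 13 into the intron for 4066 bases, at chr5:147635159-147639224. The protein ends 95 bases into that stretch, stop codon included. The lines give the minus strand from the last 30 bases of exon 13, with the read-through up to the stop codon (within chr5:147639130-147639254) or the start of exon 14 (spliced within chr5:147634429-147639254) in capitals.
Flt1 soluble: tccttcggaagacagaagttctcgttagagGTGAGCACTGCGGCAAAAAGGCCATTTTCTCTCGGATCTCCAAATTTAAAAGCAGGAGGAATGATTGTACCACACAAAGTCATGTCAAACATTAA
Flt1 full length: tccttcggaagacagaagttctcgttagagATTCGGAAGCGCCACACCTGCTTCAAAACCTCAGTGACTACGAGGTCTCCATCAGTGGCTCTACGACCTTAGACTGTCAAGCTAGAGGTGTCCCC

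Vegfb also has a pair of coding forms, Vegfb-201 of 1281 bases and Vegfb-202 of 1158 bases. Vegfb-201 has 123 bases that no other Vegfb transcript holds. The difference shown here is a stretch of 101 bases at the start of an exon, at chr19:6985496-6985596. Vegfb-201 holds this stretch and codes for VEGF-B186 (186 residues without the signal peptide), while Vegfb-202 lacks it and codes for VEGF-B167 (167 residues), the form that binds heparin. The shift of the reading frame gives the proteins different ends. The lines give the minus strand, spliced within chr19:6985466-6985840, with the added stretch in capitals.
Vegfb-201: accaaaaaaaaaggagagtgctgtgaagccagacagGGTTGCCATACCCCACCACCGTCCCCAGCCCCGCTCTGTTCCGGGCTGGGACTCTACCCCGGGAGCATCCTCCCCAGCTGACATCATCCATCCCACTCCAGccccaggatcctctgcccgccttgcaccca
Vegfb-202: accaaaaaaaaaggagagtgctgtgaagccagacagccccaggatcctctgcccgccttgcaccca

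The libraries held 34406872 and 40669822 estimated counts, of which spike-ins took 2.16% and 1.76%. The members rest on 221 to 3465 counts each, and 3 counts, taken as the smallest number that shows presence, correspond to a TPM of 0.0176 to 0.112 for them. Markers of the labelled tissue were present: all 8 gut epithelium genes (led by Lgals4, Krt8 and Epcam) and all 6 smooth muscle genes (led by Acta2, Actg2 and Tagln) were detected, and the summed levels were 3161 and 3026 TPM for the epithelium list and 2944 and 2955 TPM for smooth muscle. Marker genes of neighbouring organs were also present, at levels that differed between the libraries. The 5 pancreas acinar genes summed to 4079 TPM in replicate 1 and 1453 TPM in replicate 2, each over 1.5-fold lower in replicate 2, with Ctrb1, Cpa1 and Cela2a the highest. The 5 liver genes summed to 595 and 417 TPM, led by Trf, Afp and Apoa2, with Alb over 1.5-fold lower in replicate 2 and Cyp2e1 under a TPM of 1 in both. Because these are bulk samples, fewer cells of a type and less RNA per cell cannot be told apart in any value below.

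All 10 members were detected, meaning that both libraries gave a TPM of 1 or more. The share of detected genes was 34.6% over all Ensembl genes and 62.7% over protein-coding genes. Most members were of modest level: their median was 9.40 TPM, against 15.5 TPM over all detected genes and 17.8 TPM over detected protein-coding genes. They spanned 13.4-fold from Vegfb to Angpt2. From the highest to the lowest the order was Vegfb, Kdr, Tie1, Flt1, Vegfc, Tek, Angpt1, Flt4, Vegfa and Angpt2. In 7 of the 9 neighbouring pairs the lower of the first gene's values exceeded the higher of the next gene's, and the exceptions were Vegfc with Tek and Flt4 with Vegfa. By the stricter measure of the deposited credibility bounds, whose level is not stated, 4 of the 9 pairs stood apart, with both of the first gene's lower bounds above both of the next gene's upper bounds: Vegfb over Kdr, Tie1 over Flt1, Tek over Angpt1, and Angpt1 over Flt4. The order of Kdr and Tie1, of Flt1, Vegfc and Tek, and of Flt4, Vegfa and Angpt2 is therefore less certain. For Vegfa and Angpt2 the bounds overlapped in replicate 2 (2.96 to 4.28 against 2.67 to 3.60 TPM) and not in replicate 1 (3.87 to 5.63 against 2.35 to 3.36 TPM).

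**Figure D1:**
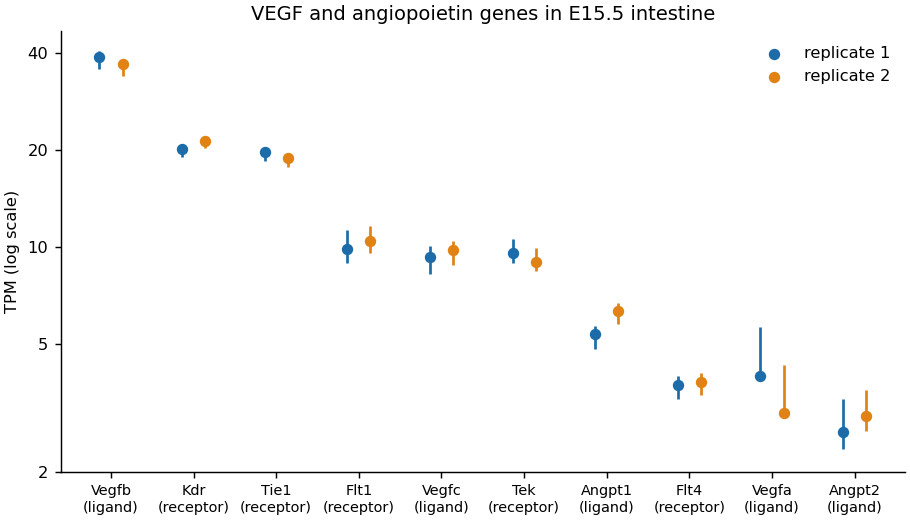
TPM of the 10 genes (log axis), ordered by mean level, with 1 point for each library and a line for the deposited credibility bounds of that value. Vegfb stands alone at a mean of 37.8 TPM, Kdr and Tie1 lie between 18.85 and 21.37 TPM, and Flt4, Vegfa and Angpt2 lie lowest, with the bounds of Vegfa and Angpt2 overlapping in replicate 2 and apart in replicate 1.

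Among the VEGF ligands, Vegfb (ENSMUSG00000024962.9, chr19:6982473-6987651, minus strand), the ligand of VEGFR1, was the most abundant. It had 38.81 TPM in replicate 1 and 36.87 TPM in replicate 2, from 1037 and 1115 counts. The libraries differed little, and 71.8% of all detected genes lay below its mean. Vegfc (ENSMUSG00000031520.5, chr8:54077606-54187096, plus strand), the lymphatic growth factor gene, had 9.32 and 9.77 TPM. Vegfa (ENSMUSG00000023951.12, chr17:46016993-46032369, minus strand), which codes for the main blood vessel growth factor, had only 3.98 and 3.04 TPM, from 243 and 236 counts. Its mean lay above 17.7% of all detected genes.

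The VEGF ligand genes outside the 10 members complete this family. Pgf, the placental growth factor gene whose product also binds VEGFR1, had 11.85 and 11.94 TPM, more than Vegfa in both libraries. Vegfd, a second ligand gene for VEGFR3, had 1.78 and 1.87 TPM. Of the summed level of these 5 genes (65.74 and 63.49 TPM), Vegfb made up 58.6% ± 0.681, Pgf 18.4% ± 0.552, Vegfc 14.8% ± 0.856, Vegfa 5.42% ± 0.895 and Vegfd 2.83% ± 0.168. The genes for ligands of VEGFR1 alone, Vegfb and Pgf, thus held the 2 largest shares in both libraries. The ratio of Vegfa to Vegfb was 0.103 in replicate 1 and 0.0825 in replicate 2.

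Among the VEGF receptors, Kdr (ENSMUSG00000062960.7, chr5:75932827-75978458, minus strand), which codes for the main signalling receptor of VEGF-A, was the highest at 20.18 and 21.37 TPM. It had the largest counts of the 10 members, 2808 and 3465. Flt1 (ENSMUSG00000029648.9, chr5:147561604-147726011, minus strand) had 9.87 and 10.45 TPM. Flt4 (ENSMUSG00000020357.3, chr11:49609263-49652739, plus strand), the receptor gene of lymphatic endothelium, had 3.73 and 3.81 TPM and the smallest spread of the 10 in TPM (SD 0.0566). Of the summed level of these 3 genes, Kdr made up 59.9% ± 0.168, Flt1 29.3% ± 0.0783 and Flt4 10.9% ± 0.247.

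The proportions among the VEGF receptors varied less between the libraries than those that involve Vegfa. The ratio of Flt1 to Kdr was 0.489 in both libraries, and the ratio of Flt4 to Kdr was 0.185 and 0.178. With 1114 and 1432 counts for Flt1, agreement in the third digit is finer than the counting error. Over coding transcripts alone the ratio was lower, at a mean of 0.311, since the coding forms of Flt1 hold only part of its TPM. The ratio of Vegfa to Kdr was 0.197 in replicate 1 and 0.142 in replicate 2, so the level of the receptor transcript was 5.07-fold and 7.03-fold that of the ligand. For the lymphatic pair the order was the opposite, with Vegfc at 2.50 and 2.56 times the level of Flt4. These are ratios of transcript levels in whole tissue and hold no protein amounts.

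In the angiopoietin system the receptors exceeded the ligands. Tie1 (ENSMUSG00000033191.10, chr4:118471191-118490061, minus strand) had 19.70 and 18.85 TPM. Tek (ENSMUSG00000006386.11, chr4:94739289-94874976, plus strand), the gene of the angiopoietin receptor Tie2, had 9.54 and 8.96 TPM. The ratio of Tie1 to Tek was 2.07 and 2.10. Tie1 therefore made up 67.6% ± 0.288 of the summed level of both receptors.

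Angpt1 (ENSMUSG00000022309.8, chr15:42424723-42676977, minus strand), whose product activates Tie2, had 5.37 and 6.33 TPM. Angpt2 (ENSMUSG00000031465.6, chr8:18690263-18741562, minus strand), the gene of the context-dependent ligand, had 2.66 and 2.99 TPM and was the lowest of the 10. The third mouse angiopoietin gene, Angpt4, had 0.52 and 0.88 TPM and did not reach the detection limit. The ratio of Angpt1 to Angpt2 was 2.02 and 2.12, and that of Angpt1 to Tek was 0.563 and 0.707. Of the summed angiopoietin level, Angpt1 made up 62.4% ± 0.529, Angpt2 30.2% ± 1.27 and Angpt4 7.36% ± 1.80.

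Both angiopoietin loci overlap other genes, and no source used here says whether reads were counted by strand. Angpt1 overlaps the antisense gene Gm17473, which shares 16.7% of the 31-base words of Angpt1 and had 0.05 and 0.02 TPM. The estimated counts of Angpt1 are not whole (534.7 and 733.9), as happens where reads are shared. Angpt2 lies within Mcph1 on the opposite strand, and Mcph1 had 10.96 and 10.65 TPM. Intronic reads of Mcph1 that fall on exons of Angpt2 could not be told from Angpt2 reads without strand. Of the other 8 members, Vegfb, Vegfc and Tek share no such word with the transcripts of another gene, and the rest share at most 1.74% (Tie1).

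The 2 libraries gave similar levels for all members. Differences are given as log2 of (TPM + 1) in replicate 2 over replicate 1, which makes the differences of low genes look smaller than they are. None of the 10 members was over 1.5-fold apart, against a background of 2.23% among the 14986 genes detected in both libraries (334 genes, 113 higher in replicate 2 and 221 higher in replicate 1). At that background a count of 0 in 10 says nothing particular about the members. The median of the members' log2 differences was 0.04, against 0.02 for all detected genes, and the median of their sizes without sign was 0.08, against 0.11. The difference was above 0 for 6 members and below 0 for 4.

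The widest differences were those of Vegfa, lower in replicate 2 (log2 difference −0.30), and of Angpt1, higher in replicate 2 (0.20). The other 8 lay between −0.08 (Tek) and 0.12 (Angpt2). From the counts alone, an exact 95% interval of the log2 difference was formed, relative to library sizes scaled by the TMM method of edgeR. This interval was not computed with another scaling. It ran from −0.55 to −0.02 for Vegfa and from 0.06 to 0.38 for Angpt1. The interval also left out 0 for Vegfb (−0.26 to −0.01) and for Flt1 (0.01 to 0.24), and it covered 0 for the other 6 members. Angpt1 was also the only member whose deposited bounds did not overlap between the libraries (4.81 to 5.69 TPM in replicate 1 and 5.77 to 6.67 TPM in replicate 2). The counting intervals cover counting error only and not the spread between pools of embryos. The pancreas acinar sum, 4079 TPM in replicate 1 and 1453 TPM in replicate 2, moved in the same direction as Vegfa, and its part in that difference was not tested.

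**Figure D2:**
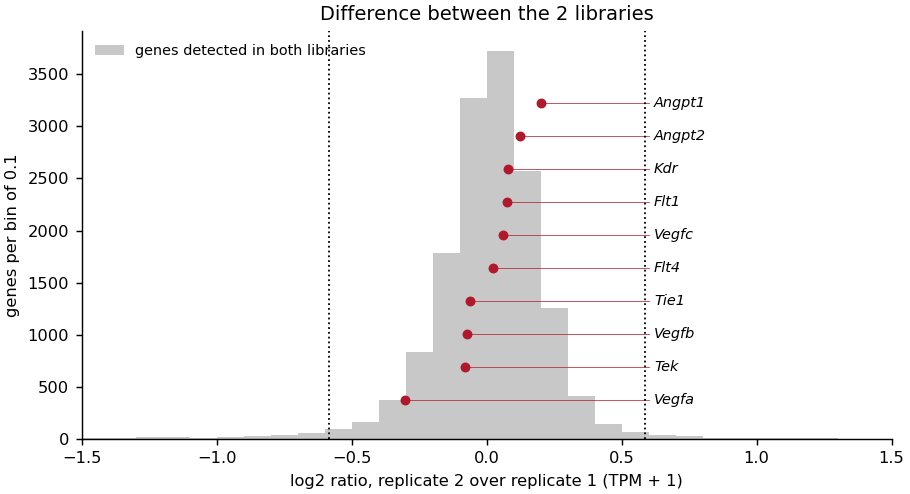
Number of genes detected in both libraries (grey bars) by log2 ratio of replicate 2 over replicate 1 on TPM + 1, with the 10 genes as red points at their ratio (their height only separates them) and dotted lines at 1.5-fold. All 10 points lie between the dotted lines, from −0.30 for Vegfa to 0.20 for Angpt1.

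At the level of transcripts, 24 of the 34 had reads in both libraries and 6 were listed at 0 in both. A share below is the percent of the gene's TPM that the authors' estimate assigned to a transcript. Vegfc and Angpt1 have 1 transcript each in the files, and the coding transcript of Angpt2 took all of that gene's estimate. Kdr-201, the receptor of 1345 residues, held 99.34% and 99.48% of Kdr, and the coding transcript of Flt4, for 1363 residues, held 97.83% and 98.69% of that gene. The Tie1 transcript that codes for the whole receptor of 1134 residues (ENSMUST00000047421.5) held 89.81% and 90.68% of Tie1. A form with a shorter coding sequence of 647 residues (ENSMUST00000184261.3) held 4.59% and 5.79%, and a noncoding form (ENSMUST00000153286.1) held 5.59% and 3.53%. For these 6 genes 1 transcript therefore accounted for nearly all of the estimate in both libraries. For Vegfc and Angpt1 this was fixed in advance, as no other transcript is listed. By posterior mean the coding transcript of Angpt2 held 91.47% and 93.72% of that gene.

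The output of Vegfa was divided among several transcripts. Of its 11 transcripts, 4 had reads in both libraries. Vegfa-211 had the largest deposited share, 40.39% in replicate 1 and 41.90% in replicate 2. Its bounds (0.233 to 2.17 and 0.141 to 1.74 TPM) overlap those of Vegfa-201 and Vegfa-202 in both libraries. By posterior mean its share was 26.93% and 25.09%, below the 28.43% of Vegfa-202 in replicate 2. It cannot be classed: it measures 3324 bases in the files and 975 bases in GENCODE M21, so its exons in the annotation the authors used are not known here. Vegfa-201 (VEGF120) held 29.52% and 17.75%, and Vegfa-202 (VEGF164) held 10.12% and 26.22%. The forms with both alternative exons (Vegfa-207, VEGF188, and Vegfa-204) and the form with the 72-base exon alone (Vegfa-203) were listed at 0 in both libraries. Noncoding transcripts with retained introns held 19.97% and 14.14% of the TPM, from 11.6 and 6.29 counts, or a mean of 3.73% of the gene's counts.

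Leaving aside Vegfa-211, which could not be classed, the order of Vegfa-201 (VEGF120) and Vegfa-202 (VEGF164) thus differed between the libraries. In replicate 1 Vegfa-201 had 1.17 TPM and Vegfa-202 0.40 TPM, while in replicate 2 Vegfa-201 had 0.54 TPM and Vegfa-202 0.80 TPM. The deposited bounds overlap in each library: in replicate 1 they ran from 0.466 to 1.90 TPM for Vegfa-201 and from 6.38e-05 to 1.36 TPM for Vegfa-202, and in replicate 2 from 0.0876 to 1.14 TPM and from 0.366 to 1.78 TPM. The estimates rest on 75.0 and 40.2 counts for Vegfa-201 and on 32.3 and 74.7 counts for Vegfa-202. Besides the 132-base exon shown in capitals above, Vegfa-202 holds a stretch of 554 bases at its 5′ end (chr17:46031816-46032369) that Vegfa-201 lacks, so reads from either stretch bear on this split. At this depth neither of these transcripts can be called the more abundant. The order of the exon classes also turns on where Vegfa-211 belongs, as given in the section on processing. The upper deposited bound for the VEGF188 form Vegfa-207, listed at 0, was 0.368 and 0.271 TPM, so its presence at a low level cannot be told from its absence.

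**Figure D3:**
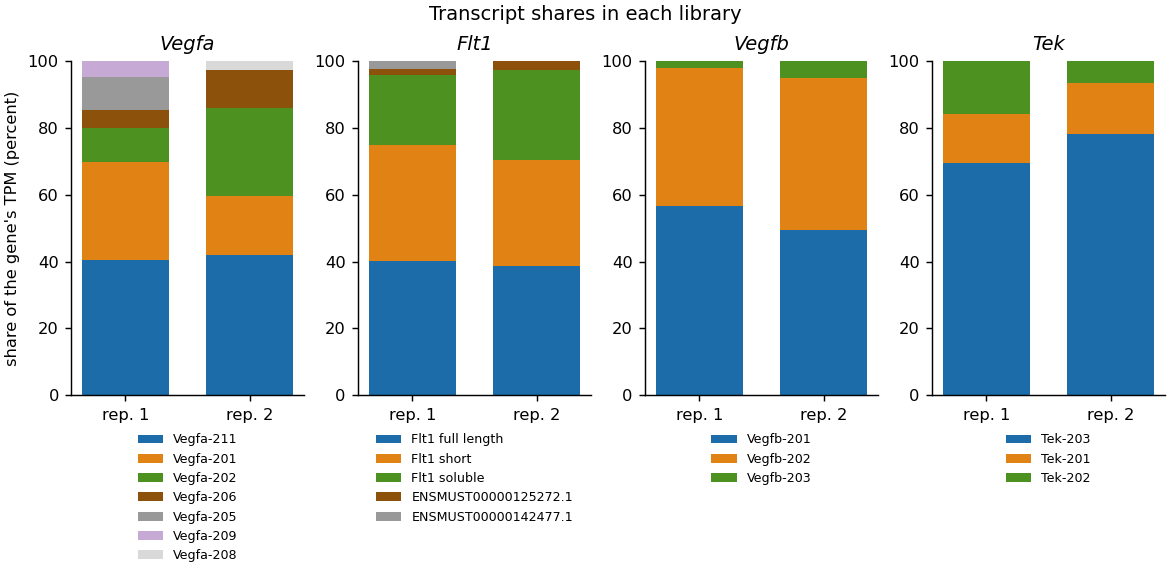
Percent of each gene's TPM assigned to each of its transcripts with a share above 0, for Vegfa, Flt1, Vegfb and Tek, with 1 bar for each library. The leading transcript of each gene was the same in both libraries, and for Vegfa the order of Vegfa-201 and Vegfa-202 below it differed between them.

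Flt1 was split mainly among 3 transcripts. The full-length form held 40.12% and 38.58% of the gene's TPM (3.96 and 4.03 TPM, from 644.5 and 764.6 counts). The soluble form held 21.01% and 26.76% (2.07 and 2.80 TPM, from 307.5 and 483.3 counts). The full-length form was higher than this soluble form in both libraries, and its deposited bounds (3.52 to 4.24 and 3.61 to 4.30 TPM) lay above those of the soluble form (1.75 to 2.33 and 2.44 to 3.08 TPM). Among coding transcripts alone the full-length form made up 62.3% and the soluble form 37.7%, as means of the 2 libraries.

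The share of the soluble form differed more between the libraries than that of any other Flt1 transcript (SD 4.07), and its bounds in replicate 1 and replicate 2 did not overlap. Its stretch of its own is 4066 bases of what is intron 13 in the full-length form, of 6292 bases in all. The libraries were made from total RNA, and in these tables reads of unspliced Flt1 in intron 13 and reads of the soluble form cannot be told apart.

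The short form, ENSMUST00000031652.3, which ends within the gene, held 34.64% and 31.96% of the gene's TPM (3.42 and 3.34 TPM, from 159.7 and 181.8 counts). It is annotated in M21 as a processed transcript without a coding sequence. It shares the first exons with the receptor and ends in an exon of its own of 241 bases at chr5:147654269-147654509. Read from the start codon that it shares with the receptor, its sequence runs for 564 codons and meets a stop codon 100 bases before its end. Because it is short, at 2049 bases, its 13.5% mean share of the gene's counts becomes 33.3% of its TPM, and only the 241 bases of its last exon tell it apart from the receptor forms. With this short form counted as soluble, a choice made after seeing the data, the soluble share was 55.65% and 58.72%, above the full-length share in both libraries. The remaining pair of Flt1 transcripts, both short, held at most 2.70% each.

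**Figure D4:**
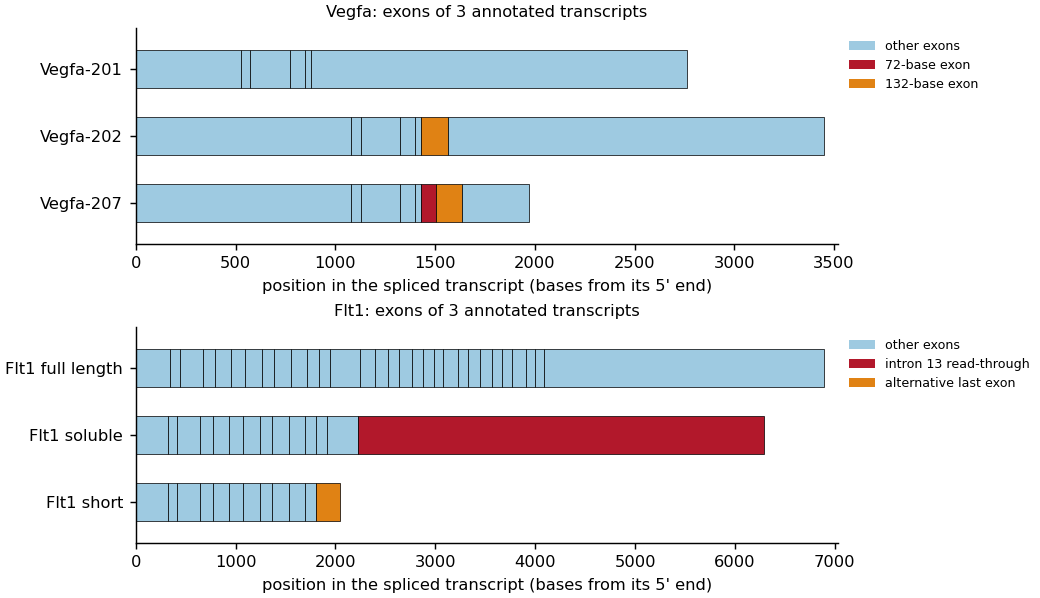
Exons of 3 transcripts each of Vegfa and Flt1 drawn to scale along the spliced transcript, in bases from its 5′ end, with the parts that tell the forms apart in red and orange. The alternative exons of Vegfa are 72 and 132 bases of up to 3451, whereas the read-through of the soluble Flt1 form is 4066 of 6292 bases and the last exon of the short Flt1 form is 241 of 2049 bases.

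Both coding forms of Vegfb took large shares. Vegfb-201 (VEGF-B186), with the stretch shown in capitals above, held 56.63% in replicate 1 and 49.31% in replicate 2. Vegfb-202 (VEGF-B167) held 41.45% and 45.51%. Their deposited bounds overlapped in each library, running from 17.7 to 25.5 and from 14.8 to 21.3 TPM for Vegfb-201 and from 11.3 to 19.8 and from 12.8 to 19.9 TPM for Vegfb-202. The order of these forms is therefore not settled, although Vegfb-201 was nominally the higher one in both libraries.

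Tek had 3 coding forms with reads. Tek-203, the longest at 1123 residues, held 69.49% and 78.32%. Tek-201, which lacks 3 coding bases at chr4:94851875-94851877 and codes for 1122 residues, held 14.53% and 15.05%. Tek-202 lacks a coding exon of 153 bases at chr4:94799127-94799279 and codes for 1072 residues. It held 15.98% in replicate 1 and 6.63% in replicate 2, and its deposited bounds overlapped between the libraries (0.716 to 2.94 and 0.0284 to 1.82 TPM).

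Partners of these ligands and receptors were present as well. Of 15 further genes of the pathway, 14 were detected and none was over 1.5-fold apart between the libraries, against the background of 2.23%. The co-receptor genes Nrp1 (31.25 and 34.33 TPM) and Nrp2 (23.43 and 25.95 TPM), whose products bind VEGFs that carry the heparin-binding stretch, both exceeded Kdr. Ptprb, which codes for the phosphatase that restrains Tie2, had 3.15 and 3.07 TPM. For the processing of VEGF-C, Ccbe1 had 2.93 and 2.29 TPM and Adamts3, the protease gene, 1.32 and 1.66 TPM. Svep1, the gene of an extracellular matrix protein needed for lymphatic vessels, had 5.22 and 5.17 TPM.

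The class 3 semaphorins use neuropilins or plexins as receptors and compete with or guide vessel growth. Among their genes Sema3c was the highest at 31.74 and 36.60 TPM, with Sema3a at 9.04 and 12.01 TPM and Sema3e at 1.51 and 1.75 TPM. Plxnd1, the receptor gene for Sema3e on endothelium, had 13.13 and 13.32 TPM. Of the angiopoietin-like genes, whose secreted products resemble angiopoietins but do not bind Tie2, Angptl2 had 32.00 and 30.84 TPM and Angptl4 had 17.03 and 19.53 TPM. The median log2 difference between libraries of these 15 genes was 0.13, against 0.02 for all detected genes.

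Hypoxia-inducible factors control Vegfa in many tissues, and all 9 genes listed for oxygen sensing were detected. Hif1a, the gene of the ubiquitous alpha subunit, had 46.78 and 57.71 TPM, and Arnt, that of the beta subunit, had 28.72 and 27.38 TPM. Epas1, which codes for HIF-2α and is typical of endothelium, was far lower at 3.15 and 3.40 TPM, and Hif3a, the gene of another alpha subunit, had 58.58 and 55.01 TPM. The genes of the prolyl hydroxylases that mark the alpha subunits for degradation were unequal, and Egln2 (60.59 and 57.07 TPM) and Egln3 (45.02 and 48.54 TPM) exceeded Egln1 (11.89 and 12.30 TPM). Vhl, whose product takes up the marked subunit, had 26.13 and 27.86 TPM, and Hif1an, which codes for the asparagine hydroxylase that restrains it, had 20.98 and 21.93 TPM. Each of these genes except Epas1 was above the 3.98 and 3.04 TPM of Vegfa in both libraries. Epas1 was below Vegfa in replicate 1 and above it in replicate 2.

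Markers of the endothelial cells in which these receptors act were detected throughout their main list. All 17 blood endothelium genes were detected, led by Egfl7 (98.9 ± 6.07 TPM), Plvap (64.2 ± 1.73 TPM) and Eng (52.5 ± 0.0919 TPM). Their median was 23.9 and 21.99 TPM, near the level of Kdr and Tie1. Tip cell genes, which mark the leading cells of sprouts, were low but present, with all 7 detected and Dll4 (6.96 ± 0.113 TPM), Pdgfb (5.76 TPM in both) and Apln (5.16 ± 0.297 TPM) highest. Angpt2 is itself one of these 7. Venous genes were detected in 3 of 3 cases, led by Aplnr, Ephb4 and Nr2f2, with a median of 30.5 and 31.6 TPM. Arterial genes were detected in 5 of 6 cases, led by Gja4, Gja5 and Efnb2, with a lower median of 11.5 and 11.6 TPM. The arterial gene Bmx stayed under a TPM of 1. These lists hold different genes measured in whole tissue, so their medians do not compare amounts of venous and arterial endothelium.

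Lymphatic genes were detected in 7 of 8 cases, with Foxc2 under a TPM of 1. Ccl21a, which has near-identical copies and is uncertain for that reason, was the highest (73.5 ± 0.431 TPM), followed by Nrp2 (24.7 ± 1.78 TPM) and Pdpn (21.8 ± 1.72 TPM), which mesenchyme and mesothelium also express. Prox1, the defining transcription factor gene of lymphatic endothelium, had only 2.17 and 2.29 TPM, below the 3.73 and 3.81 TPM of Flt4. Of the mural cell genes, which mark pericytes, a known source of angiopoietin-1, 6 of 7 were detected, led by Kcnj8, Pdgfrb and Cspg4, and Higd1b stayed under a TPM of 1. The 6 macrophage genes, led by C1qb, Tyrobp and C1qa, summed to 192 and 173 TPM. No gene of the endothelial, mural, macrophage, epithelial or muscle lists was over 1.5-fold apart between the libraries. The background was 2.23% of the genes detected in both, so this says little about these lists or their likeness to the members.

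**Figure D5:**
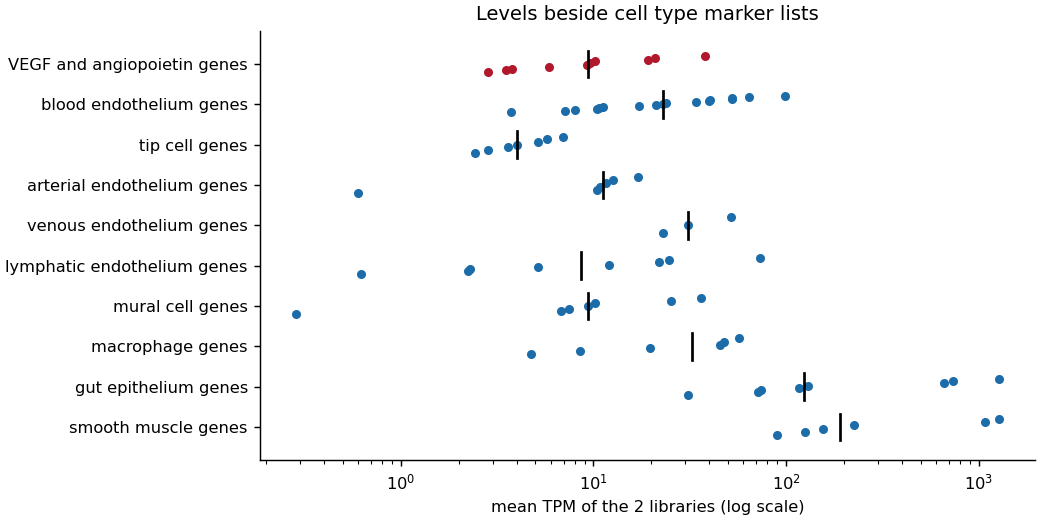
Mean TPM of the 2 libraries (log axis) for each gene of the 10-gene set (red) and of the marker lists (blue), with a black bar at each list's median. The set's median of 9.40 TPM lies below that of the blood endothelium list and far below those of gut epithelium and smooth muscle.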

How the data were processed

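Total RNA was sequenced from 2 pools of E15.5 intestine. Per the labels, RNA was extracted with mirVana, fragments over 200 nucleotides were kept, each library started from 10 ng with ERCC spike-ins, and the protocol documents include a SMARTer low-input kit manual. The sources used here give no aligner, quantifier, strand setting or read length. The deposited gene and transcript tables (mm10, GENCODE M4 per the deposited readme) hold, per the file headers, the authors' expected counts, TPM, FPKM, posterior means and credibility bounds (a score here, as no level is stated), and transcript shares in percent (IsoPct). The authors' TPM includes the spike-ins in its total. Effective lengths are 99 bases shorter than annotated ones, by the median.

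The 10 genes and all gene lists were chosen with earlier results of these data known. Symbols, positions, exons and sequences came from GENCODE M21 by identifier without version (98.0% of 43346 genes matched), and 31 of the members' 34 transcripts have the same length in both releases. Text was restricted to the members, their 2 pathway lists, and from each marker list the 3 highest genes and up to 3 under a TPM of 1. Prox1, Alb, Gm17473 and Mcph1 fall outside this rule and were named after their values were seen. Detection meant that both libraries had a TPM of 1 or more. Ratios between the libraries used a pseudocount of 1, and over 1.5-fold counted as apart. Ratios between members used no pseudocount. Counting intervals are exact (Clopper-Pearson, 95%) on estimated counts rounded to whole numbers, relative to TMM-scaled library sizes. Copies were sought as 31-base words in all M21 transcripts. The tools were Python 3.11.15, pandas 2.3.3, numpy 2.4.6, scipy 1.17.1 and matplotlib 3.10.9. In R 4.3.3, edgeR 4.0.16 served the counting intervals and alternative scaling, and DESeq2 1.42.0 served alternative scaling only. With 1 group, no differential test was run. Alternatives covered units, pseudocount, scaling, limits, isoform estimates and leaving out each library.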

Additional observations from a re-analysis of the deposited data

How the results depend on the processing

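The members detected numbered 10, 7 and 3 at TPM limits of 0.5, 5 and 10. At the limit of 5, 11108 of all 43346 Ensembl genes passed. The share of all genes at limits of 0.5 and 10 was not computed, so these counts are not set against a background. No member was over 1.5-fold apart with a pseudocount of 0.1, with TMM or DESeq2 scaling or at 2-fold, and 1 (Vegfa) was over 1.2-fold apart. The direction of the difference stayed the same for all 10 members under these scalings and that pseudocount. The number of all genes apart depended on the setting: 556 with a pseudocount of 0.1, 509 with TMM and 509 with DESeq2 size factors. Among the 14986 genes detected in both libraries it was 2103 at 1.2-fold (14.03%) and 104 at 2-fold (0.694%). It was 912 of 43346 genes with no filter on low values (2.104%) and 144 of 11108 at a TPM of at least 5 (1.296%). The main setting gave 334 of 14986 genes (2.23%), a share near that with no filter. At the background of 14.03%, 1 member of 10 over 1.2-fold apart says nothing particular about the members. Rescaling TPM to protein-coding genes outside the mitochondrial genome and globins raised every member 1.26-fold and left the order as it was, and depth-scaled counts per kilobase put every member at 0.647 to 0.694 of its TPM. Posterior mean TPM placed Tek above Vegfc and Vegfa above Flt4, and the counts per kilobase also placed Tek above Vegfc.

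The Vegfa shares varied with the estimate. Posterior mean shares were 26.01% for Vegfa-211, 22.2% for the noncoding forms, 4.87% for the form with the 72-base exon alone and 5.64% for the forms with both exons, the last pair being 0 in the main estimate. Vegfa-211 took 49.9% of the gene's expected counts and 49.6% of its coding transcripts, and the noncoding forms took 3.73% of the counts. Chosen after seeing the data, an alternative that classed Vegfa-211 by its M21 structure gave the class with neither exon 64.8%. Leaving out 1 library gave Vegfa-201 17.8% to 29.5% and Vegfa-202 10.1% to 26.2%.

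For Flt1, full-length shares were 37.9% by posterior mean, 55.6% of counts and 62.3% of coding transcripts, and soluble shares were 30.7% of counts and 37.7% of coding transcripts. The other forms took 13.7% of counts. Counting the short form with its own last exon as soluble, also chosen after seeing the data, gave 57.2%. The full-length share exceeded the soluble share in each library alone and in each of these alternatives except that last one, which turned the order.

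The ratio of Flt1 to Kdr was 0.508 by posterior mean, 0.487 by counts per kilobase and 0.311 over coding transcripts. Vegfc to Flt4 was 2.44 by counts per kilobase, Angpt1 to Angpt2 1.92 by posterior mean, Tie1 to Tek 2.01 by posterior mean and 1.99 over coding transcripts, and Vegfa to Vegfb 0.112 by posterior mean. All 8 ratios kept their side of 1. The causes of these shifts were not tested. No paired analysis was possible because the 2 libraries form 1 group. The isoform shares of Vegfa rest on at most 243 counts for the gene, and none of its coding transcripts of known structure holds an exon base that all other such transcripts of the gene, noncoding ones included, lack.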
